A study of Caenorhabditis elegans with 12 samples.

Results

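Polysomal RNA was compared with nonpolysomal RNA in wild-type Caenorhabditis elegans. The comparison uses 6 of the 12 arrays of the series, chosen by genotype and fraction, namely 3 arrays of polysomal RNA and 3 of nonpolysomal RNA. Both fractions came from the same 3 separately harvested cultures, so each culture gives a matched pair. The worms were of mixed stages, with eggs and larvae, and spent the last 3 days before harvest at 20 °C on bacteria enriched with egg yolk. Each lysate was spun through sucrose rising in concentration (10 to 45%). RNA heavier than 80S was pooled as polysomal, and RNA lighter than 80S was pooled as nonpolysomal. The other 6 arrays hold the same fractions of the mutant ife-1(bn127), which lacks normal function of a germline form of the cap-binding factor eIF4E.

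A polysome is an mRNA with several ribosomes on it, and it sediments faster than a single 80S ribosome. An mRNA that waits for initiation, is repressed or is not translated at all stays in the light part of the gradient as a ribonucleoprotein particle. In the worm germline many maternal mRNAs are stored in this way until the oocyte or embryo needs them. Somatic mRNAs for structural and secreted proteins are translated in the tissue that makes them. Since whole cultures of mixed stages were lysed, each value averages all tissues and stages in which an mRNA is present. A smaller number of cells of a type and less RNA per cell cannot be told apart.

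A pair of quantities describes each gene. The log2 ratio P/NP is the log2 of the normalised polysomal signal over the normalised nonpolysomal signal in a culture, and positive values mean a higher level in polysomal RNA. The polysomal share is P/(P + NP) in percent. Because the arrays were normalised to a common distribution, both say where an mRNA stood among all mRNAs measured, and a share of 50% does not mean that equal numbers of molecules lay in both fractions. Across genes, the log2 ratios of cultures 1 and 3 correlated at 0.858, those of cultures 1 and 2 at 0.773 and those of cultures 2 and 3 at 0.755. These correlations run over probe sets that share arrays, and genes are not independent replicates.

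The signal distributions of the fractions differed at the bright end. The 99th percentile of deposited signals lay at 13309 to 14641 on the polysomal arrays and at 20528 to 23490 on the nonpolysomal arrays, whereas the 90th percentile lay at 2581 to 2631 and at 2528 to 2635. Normalisation levels this difference, so the values of the brightest genes depend on it. Values are normalised unless said to be as deposited. Scaling on the bacterial control probe sets moved the median log2 ratio of all probe sets to 0.55, in place of -0.05. RNA ends also differed. The log2 ratio of 3′ over 5′ signal of the actin control was 2.57 to 3.04 in polysomal RNA and 3.09 to 4.39 in nonpolysomal RNA, and that of Gapdh was 1.14 to 1.39 and 1.83 to 2.36. The catalase control showed the opposite order, with 4.49 to 4.74 in polysomal RNA and 2.98 to 3.51 in nonpolysomal RNA. The ubiquitin control overlapped, with 4.93 to 5.18 and 4.55 to 5.10. The part of these differences in the results below was not tested.

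**Figure D1:**
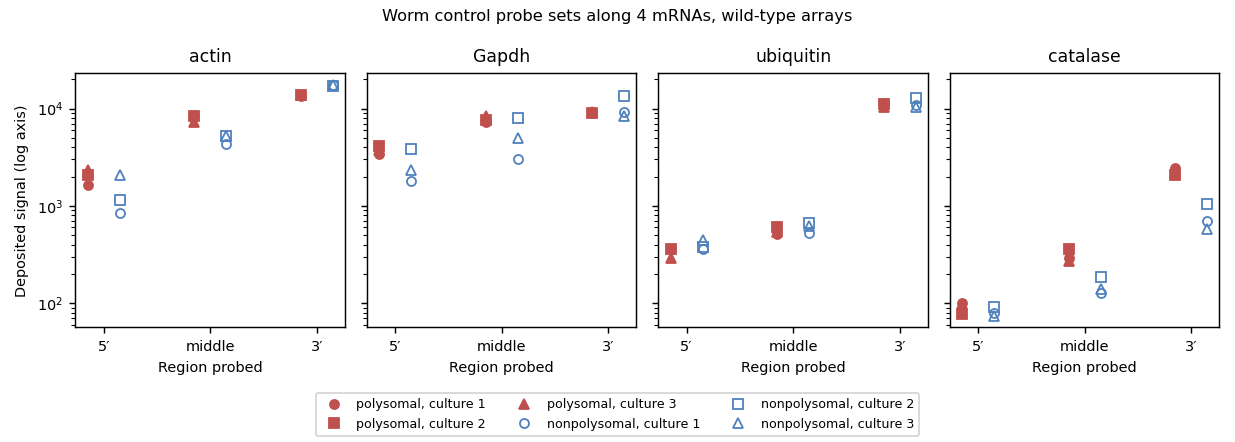
Deposited signal (log axis) of worm control probe sets at the 5′ end, middle and 3′ end of 4 mRNAs, with polysomal arrays as filled red symbols and nonpolysomal arrays as open blue symbols, 1 symbol shape per culture. The actin 3′ probe set was brighter in nonpolysomal RNA on all arrays, at 17158 to 17548 against 13547 to 13936 in polysomal RNA, but its middle probe set was brighter in polysomal RNA.

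Of 13333 probe sets, 3538 or 26.5% were richer in polysomal RNA and 3900 or 29.3% were richer in nonpolysomal RNA (limma, adjusted p under 0.05). Taken by the brightest probe set of each gene, these were 2691 of 10334 genes, or 26%, and 3088 genes, or 29.9%. A further 4555 genes were not called, of which 592 had an unadjusted p under 0.05. The difference was at least 2-fold for 1297 polysomal and 1286 nonpolysomal genes, and at least 4-fold for 212 and 144. All 3 polysomal arrays lay above all 3 nonpolysomal arrays for 2313 genes, or 22.4%, and below them for 2802 genes, or 27.1%. Polysomal shares had a median of 49.1%, with quartiles at 40% and 59.2% and the 5th and 95th percentiles at 27.2% and 74.0%. The median SD of a share over the 3 cultures was 4.83 percentage points. Where a gene had more than 1 called probe set, the probe sets went in opposite directions for 38 of 820 genes, or 4.63%.

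The most polysomal mRNAs that were detected in both fractions included genes of muscle, stress response and protein turnover. Normalised signals of sup-1, a small transmembrane protein gene found as a suppressor of mutations in the vesicular acetylcholine transporter, were 1532, 1835 and 2149 in polysomal RNA of cultures 1 to 3, against 133.5, 232.6 and 175.7 in nonpolysomal RNA. The lowest polysomal value was far above the highest nonpolysomal one, and the difference was 3.37 ± 0.27 on the log2 scale (SE, n = 3 cultures; limma adjusted p = 6.62e-05). Here and below, the SE and limma p-values pool the spread of the wild-type and ife-1 cultures. The small heat shock protein gene hsp-12.3 had 700.4, 542.6 and 657.4 in polysomal RNA, against 79.2, 68.4 and 78.5 in nonpolysomal RNA. Its shares were close in all cultures, at 89.8%, 88.8% and 89.3%. The Skp1-related gene skr-3, which encodes a ubiquitin ligase adapter, had 1298, 1341 and 1613 in polysomal RNA, against 195.3, 181.8 and 182.3 in nonpolysomal RNA. The related gene skr-4 had a share of 87.7% ± 3.26 (SD, n = 3). The HECT ubiquitin ligase gene eel-1 had 1925, 2018 and 1427 in polysomal RNA, against 293.7, 224.4 and 219.4 in nonpolysomal RNA. Among the other extremes, unc-95, a muscle attachment protein gene, had a share of 90.6% ± 6.10, and lrp-2, a lipoprotein receptor-related gene, had 87.9% ± 0.267.

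Abundant mRNAs reached nearly the same shares. The hedgehog-related gene grd-14 had normalised signals of 6865, 4969 and 6807 in polysomal RNA, against 1088, 662.4 and 976.8 in nonpolysomal RNA. The lipid-binding protein gene lbp-2 had 8657, 8883 and 7999 in polysomal RNA, against 1447, 1866 and 1328 in nonpolysomal RNA. The fatty acid and retinol binding protein gene far-3 had 14192, 13351 and 11056, against 1909, 3682 and 2149. In each of the 3 genes the fractions did not overlap, and the polysomal signal was 6.91-fold, 5.56-fold and 5.18-fold higher. As deposited, the log2 differences of grd-14, lbp-2 and far-3 were 2.89, 2.51 and 2.28. The galectin gene lec-5 had a share of 83.8% ± 2.44. For 196 polysomal genes no nonpolysomal array gave a present call, so only a lower bound exists. The uncharacterised gene C50F7.5 had polysomal signals of 1186, 3254 and 1026, against 119.5, 295.8 and 55.2 in nonpolysomal RNA that were not called present. Taken against these undetected signals, it was on average at least 12.7-fold higher in polysomal RNA. This bound carries the spread between cultures, and single cultures lay below it.

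At the nonpolysomal end, the chromodomain gene cec-3, whose protein binds methylated histone H3, had normalised signals of 224.6, 221.7 and 258.4 in polysomal RNA, against 1853, 1593 and 2298 in nonpolysomal RNA. The nonpolysomal level was 8.08-fold higher and the fractions were far apart in every culture (log2 difference -3.01 ± 0.14, SE; limma adjusted p = 4.95e-05). The uncharacterised gene Y17D7B.4 had 266.2, 296.1 and 311.6 in polysomal RNA, against 2088, 1859 and 2025 in nonpolysomal RNA. Y110A2AL.4, also uncharacterised, had 377.9, 898.8 and 579.1, against 4284, 5429 and 4313. Of the abundant mRNAs, clec-150, which encodes a C-type lectin, had a share of 18.6% ± 3.78, trcs-1 had 18% ± 0.938 and C54D10.3 had 16.5% ± 4.18. The phosphatase gene cdc-25.3, of the Cdc25 family that activates cell cycle kinases, gave no present call in polysomal RNA. It was on average at least 6.20-fold lower there. Such bounds apply to 50 nonpolysomal genes.

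**Figure D2:**
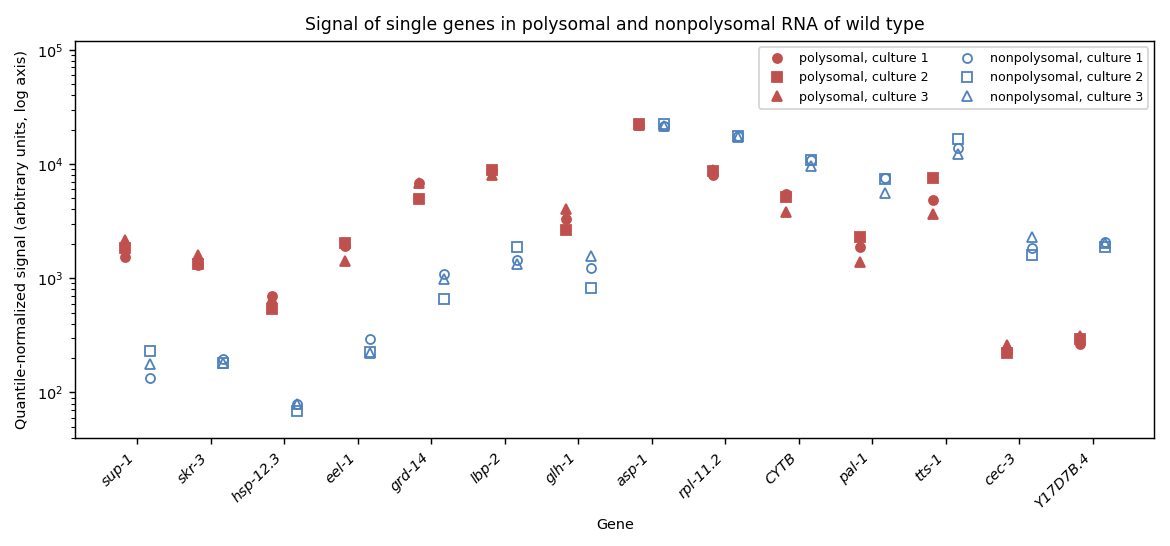
Quantile-normalised signal (arbitrary units, log axis) of 14 genes in polysomal RNA (filled red, left) and nonpolysomal RNA (open blue, right) of wild-type cultures 1 to 3 (circle, square, triangle). Genes at the left lie higher in polysomal RNA in every culture (sup-1 share 91.1%), asp-1 lies at 50% and genes at the right lie lower (cec-3 share 11%).

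Noncoding RNAs, which encode no protein, were mainly richer in nonpolysomal RNA. RefSeq marks 9 measured genes as noncoding RNA. Of these, 2 were richer in polysomal RNA and 7 in nonpolysomal RNA, against 26% and 29.9% of all genes. Over the alternatives 1 to 2 were called polysomal and 3 to 7 nonpolysomal. The abundant noncoding RNA tts-1 had normalised signals of 4884, 7536 and 3640 in polysomal RNA, against 13834, 16483 and 12192 in nonpolysomal RNA, a log2 difference of -1.46, or -1.99 as deposited. The related tts-2 had a share of 28.9% ± 3.32, and Y53F4B.45 had 15.9% ± 1.81. The exceptions were C05D2.11 at 67.8% ± 6.41 and W06H8.5 at 58.6% ± 2.23. All 3 long noncoding RNAs were nonpolysomal, among them lep-5, which times tail development in males, at 27.8% ± 2.35. Of 140 genes marked as pseudogenes, 1 was richer in polysomal RNA and 91 in nonpolysomal RNA, and their median log2 ratio was -1.0 against -0.05 for all genes. Between 15 and 105 of them were called nonpolysomal over the alternatives, with the median below that of all genes in each. Pseudogene probe sets can share signal with the parent gene.

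The mitochondrial genome is translated by ribosomes inside the organelle, which differ in size from cytosolic ones. All 8 measured mitochondrial genes were richer in nonpolysomal RNA, with a median log2 ratio of -1.1. Cytochrome b, CYTB, had normalised signals of 5484, 5112 and 3815 in polysomal RNA, against 10827, 10934 and 9566 in nonpolysomal RNA. Shares ran from 16.7% ± 2.91 for the complex I subunit ND5 to 40.9% ± 3.31 for the cytochrome oxidase subunit COX1. With the signals as deposited the median was -1.51, and 6 to 8 of the 8 genes were called nonpolysomal under each alternative tried.

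The mRNAs of the translation machinery did not share a side. Of 63 cytosolic ribosomal protein genes, 0 were richer in polysomal RNA and 23 were richer in nonpolysomal RNA, against 26% and 29.9% of all genes, and their median log2 ratio was -0.27. All lie near the top of the signal range, and with signals as deposited 63 of 63 were called nonpolysomal with a median of -0.91, or 0.90 below that of all genes. On the bacterial controls 10 were called nonpolysomal, and without culture 1 and culture 3 there were 8 and 10. Of the paralogs of ribosomal protein L11, 1 was called nonpolysomal. The gene rpl-11.2 had normalised signals of 8041, 8657 and 8942 in polysomal RNA, against 17711, 17503 and 17315 in nonpolysomal RNA, with a share of 32.8% ± 1.44. Its paralog rpl-11.1 had 12573, 15391 and 12914, against 14722, 10330 and 14754, with a share of 50.9% ± 7.78 and overlap of the fractions. As deposited both were called nonpolysomal, at -1.58 for rpl-11.2 and -0.50 for rpl-11.1 (limma adjusted p = 8.61e-05 and 0.0477). The difference between paralogs was not tested.

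Elongation factors act as the ribosome moves along the message, and their list includes the mitochondrial tsfm-1, tufm-1, tufm-2 and gfm-1. All of these but tsfm-1 were nonpolysomal. In the whole list 8 of 12 genes were nonpolysomal and 0 polysomal, with a median of -0.51. The count was 10 with signals as deposited, with a median of -0.79, and 11 with a common median. It was 1 on the bacterial controls, where the median lay 0.77 below that of all genes, and 4 without culture 1. Of the eIF5A genes, iff-2 had a share of 34.7% ± 2.60, and the germline form iff-1 had 52.5% ± 5.15 and did not pass. With a common median iff-1 was called nonpolysomal at -0.54 (limma adjusted p = 0.0201), as was iff-2, and their difference was not tested. Of 30 initiation factors, 8 were polysomal and 5 nonpolysomal. The cap-binding factor ife-2 had shares of 81.6%, 56.9% and 80.1% in cultures 1 to 3, with culture 2 well below the others. The factor eif-2A had a share of 31.6% ± 4.65. Aminoacyl-tRNA synthetases were split evenly, with 7 of 31 in each direction, near the 26% and 29.9% of all genes. The methionyl enzyme mars-1 stood at 67.4% ± 1.09, and the arginyl enzymes rars-1 and rars-2 stood at 34.7% ± 2.18 and 22.3% ± 2.68. Mitochondrial ribosomal proteins were polysomal for 11 and nonpolysomal for 19 of 54, also near the shares of all genes. They included mrps-11 at 21.1% ± 0.151 and mrpl-54 at 72.1% ± 2.81.

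Genes of protein turnover fell on opposite sides. Proteasome subunits, which degrade tagged proteins, were richer in polysomal RNA for 20 of 33 and in nonpolysomal RNA for 2. For all genes these were 26% and 29.9%. The median of the subunits was 0.46. Without culture 1 there were 13 polysomal subunits. The core subunit pas-4 had a share of 72.8% ± 3.72 and pbs-1 had 71.7% ± 5.07, whereas the regulatory subunit rpn-8 had 36.5% ± 2.30. F-box and BTB genes, which encode the substrate adapters of ubiquitin ligases, were polysomal for 13 and nonpolysomal for 74 of 145, with a median of -0.61. On the bacterial controls their median was 0.00, which lay 0.54 below all genes, and 22 were called polysomal and 26 nonpolysomal. Of these adapters, 93 were called present on all 6 arrays. The adapter fbxa-215 had 191.9, 271 and 201 in polysomal RNA, against 1221, 1249 and 1466 in nonpolysomal RNA, with no overlap. Heat shock proteins were polysomal for 8 and nonpolysomal for 2 of 18, with hsp-12.1 at 84.4% ± 3.71 and hsp-110 at 41.9% ± 2.21. The cytosolic chaperonin CCT had 0 polysomal and 2 nonpolysomal of 8, the latter near the 29.9% of all genes.

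Nuclear and RNA-processing genes had no common side. Of all genes 26% were polysomal and 29.9% nonpolysomal. Splicing factors were polysomal for 10 and nonpolysomal for 4 of 36, with the Sm protein gene snr-1 at 75.6% ± 2.94 and prp-38 at 29.3% ± 4.66. Nuclear pore genes were called for 7 of 25 in each direction, near the shares of all genes, with npp-21 at 82.1% ± 4.02 and npp-22 at 37.9% ± 3.91. Histone genes were polysomal for 8 and nonpolysomal for 7 of 31, also near the shares of all genes. The linker histone gene hil-2 had a share of 78.9% ± 6.94 and the histone H3.3 gene his-71 had 77.5% ± 3.51. In contrast, his-64 had 22.7% ± 6.67 and his-67 had 18.4% ± 1.63. Histone families hold near-identical copies, so their probe sets may share signal.

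After normalisation the 2 lists with the lowest medians were of the germline. As deposited the ribosomal proteins stood lower, and among genes above the median signal the 14 F-box and BTB genes left did, at -1.17. Genes of meiotic chromosomes, which pair, recombine and segregate homologs, were polysomal for 0 and nonpolysomal for 41 of 50. For all genes these were 26% and 29.9%. The median log2 ratio of the meiotic genes was -1.01. Cultures 1 to 3 gave medians of -1.02, -1.07 and -0.90. The resolvase gene mus-81 had normalised signals of 324.6, 422.3 and 218.3 in polysomal RNA, against 1236, 1314 and 1207 in nonpolysomal RNA. The crossover factor cosa-1 gave no present call in polysomal RNA and 1 in nonpolysomal RNA. The rule for bounds gave 4.01-fold, which is not a lower bound because the nonpolysomal signal was itself mostly undetected. The member with the highest value was cra-1, which promotes synapsis, at 54% ± 1.72, and it did not pass (limma adjusted p = 0.189). Scaled on the bacterial controls, 2 of the 50 were called polysomal and 17 nonpolysomal, and the median was -0.30, or 0.84 below that of all genes.

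Maternal genes of RNA binding and cell fate were nonpolysomal for 33 of 47 and polysomal for 4, against 29.9% and 26% of all genes. Their median was -0.88. The caudal-type homeobox gene pal-1, whose maternal mRNA is known to be repressed until the early embryo, had normalised signals of 1869, 2301 and 1385 in polysomal RNA, against 7507, 7366 and 5527 in nonpolysomal RNA. The nonpolysomal level was 3.72-fold higher (log2 difference -1.89 ± 0.17, SE; limma adjusted p = 8.5e-05). The Nanos gene nos-2 had a share of 18.4% ± 5.04 and the Pumilio gene puf-8 had 21.2% ± 3.02. The 4 polysomal members included par-5, the 14-3-3 protein gene of embryonic polarity, at 67.3% ± 1.68, and cpb-2, a CPEB gene of spermatogenesis, at 69% ± 13.5. The cpb-2 value rests on present calls on 2 of 3 arrays in each fraction. With bacterial control scaling 8 members were polysomal and 15 nonpolysomal, and the median lay 0.88 below that of all genes.

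P granule and germline Argonaute genes, of the RNA bodies of germ cells, did not share a side. Of 22, 6 were polysomal and 9 nonpolysomal, against 26% and 29.9% of all genes. The Vasa-type helicase gene glh-1 had normalised signals of 3329, 2634 and 4007 in polysomal RNA, against 1224, 817.5 and 1576 in nonpolysomal RNA. The fractions did not overlap and the share was 73.7% ± 2.33, while glh-2 had 69.3% ± 3.21. Opposite to these, deps-1 had 27.3% ± 0.973 and meg-3 had 22.3% ± 11.6. The meg-3 value rests on a present call on 1 of 3 polysomal arrays.

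After normalisation, cell cycle lists held more nonpolysomal and fewer polysomal genes than the 29.9% and 26% of all genes. Culture 2 stood apart. DNA replication genes were polysomal for 2 and nonpolysomal for 17 of 33, with list medians of -0.61, -0.03 and -0.69 in cultures 1 to 3. The origin recognition gene orc-1 had normalised signals of 409.8, 392 and 447.6 in polysomal RNA, against 1355, 1112 and 1620 in nonpolysomal RNA. The DNA polymerase epsilon gene pole-1 had a share of 72.6% ± 5.22. Genes of mitosis and cell division were polysomal for 7 and nonpolysomal for 27 of 52, with medians of -0.64, -0.18 and -0.64. The centriole gene sas-5 stood at 23.7% ± 2.09 and the condensin gene smc-4 at 66.9% ± 2.91. On the bacterial controls both medians were 0.11, which lay 0.43 below that of all genes. Calls were then 8 polysomal and 8 nonpolysomal for replication, and 15 and 4 for mitosis.

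Eggshell and egg activation genes showed the widest gap between cultures among the germline lists, with medians of -0.71, 0.16 and -0.58. They were polysomal for 3 and nonpolysomal for 8 of 17, against 26% and 29.9% of all genes. The permeability barrier genes perm-4 and perm-2 had shares of 71.5% ± 9.31 and 67.5% ± 5.39. For perm-4 the shares of cultures 1 to 3 were 64%, 81.9% and 68.5%. The chitin precursor enzyme gene gna-2 had shares of 22.3%, 29.4% and 24.3% and egg-3 had 30.7% ± 1.72. Bacterial control scaling gave a list median of 0.03, or 0.51 below that of all genes.

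**Figure D3:**
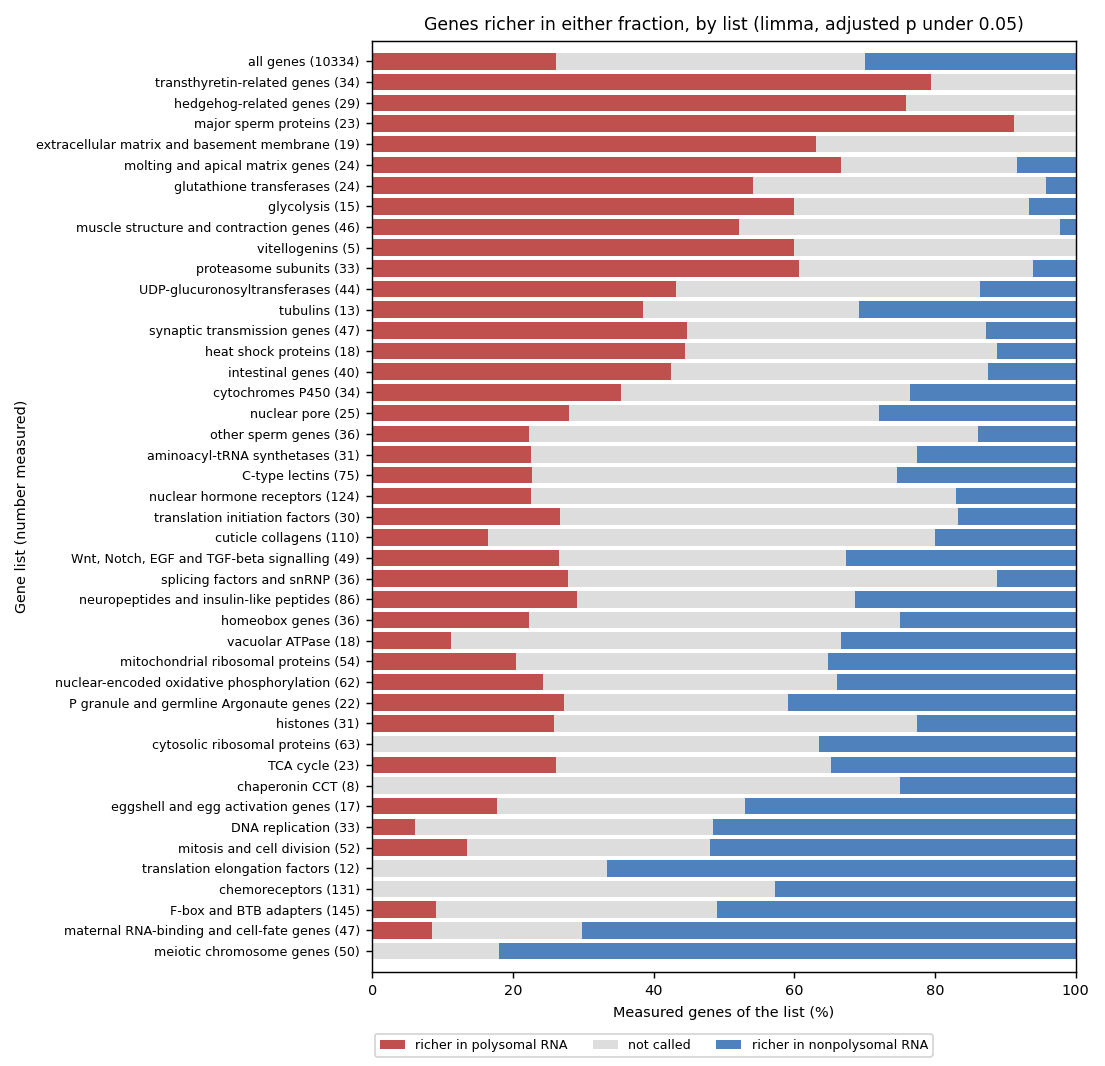
Percent of the measured genes of each list that were richer in polysomal RNA (red), not called (grey) or richer in nonpolysomal RNA (blue) by limma at an adjusted p under 0.05, with all 10334 genes at the top and the number measured in brackets. Transthyretin-related genes (79.4% polysomal) stand near the top and meiotic chromosome genes (82.0% nonpolysomal) at the bottom.

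Sperm genes need the scaling beside them. Major sperm proteins, the cytoskeletal proteins of nematode sperm, were polysomal for 21 of 23 and nonpolysomal for 0. For all genes these were 26% and 29.9%. The median log2 ratio of the major sperm proteins was 0.79. With signals as deposited 7 were called, with a median of 0.28, and with a common median 4 were called, with a median of 0.15. Without the pairing of fractions within cultures 3 were called. The gene msp-152 had normalised signals of 21022, 7629 and 20131 in polysomal RNA, against 11682, 3506 and 10045 in nonpolysomal RNA. Both fractions of culture 2 were low, so the fractions overlap across cultures although its shares were 64.3%, 68.5% and 66.7%. The list's median log2 sum of both fractions was 14.92, 13.44 and 14.76 in cultures 1 to 3, so culture 2 held less of this signal. For other sperm genes these values were 10.87, 9.0 and 10.77. Of those 36 genes, 8 were polysomal, near the 26% of all genes, and 5 nonpolysomal, below the 29.9%. Over the alternatives 1 to 19 of these other sperm genes were polysomal and 0 to 6 nonpolysomal. The sperm-specific gene ssq-3 stood at 82.2% ± 3.95 and spe-39 at 33% ± 5.64. Every one of the 23 probe sets of major sperm proteins has a name that does not mark it as specific to 1 gene.

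Vitellogenins, the yolk proteins made in the intestine of adults, were polysomal for 3 of 5, against 26% of all genes. The gene vit-6 had normalised signals of 12598, 20569 and 19088 in polysomal RNA, against 8526, 9056 and 11682 in nonpolysomal RNA, and a share of 63.7% ± 5.11. With signals as deposited or scaled to a common median 0 of 5 passed, and the list median was -0.11 and -0.23 in place of 0.48.

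The 2 lists with the highest medians were families of secreted proteins. Transthyretin-related genes, a large nematode family of small secreted proteins, were polysomal for 27 of 34 and nonpolysomal for 0. For all genes these were 26% and 29.9%. The median log2 ratio of the transthyretin-related genes was 1.56. The count was 28 with signals as deposited, 30 on the bacterial controls and 19 of the 21 genes above the median signal, and the median lay 1.40 to 1.86 above that of all genes over the alternatives. Cultures 1 to 3 gave medians of 1.91, 1.13 and 1.68. The member with the highest value, ttr-31, had normalised signals of 1842, 2052 and 2238 in polysomal RNA, against 263.4, 454.8 and 215.4 in nonpolysomal RNA. The lowest members, ttr-53 and ttr-1, had shares of 46.1% ± 3.28 and 46% ± 8.63 and did not pass.

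Hedgehog-related genes, whose products are secreted by the epidermis and other epithelia, were polysomal for 22 of 29 and nonpolysomal for 0, with a median of 1.06. Beside grd-14, grl-4 had a share of 83.8% ± 1.47, and grl-12 and grd-7 had 48.6% ± 4.58 and 44.2% ± 4.50 without passing. Molting and apical matrix genes were polysomal for 16 and nonpolysomal for 2 of 24. The protease inhibitor gene mlt-11 had 74.6% ± 8.2 and mlt-8 had 38.7% ± 6.52. Cuticle collagens did not follow these lists. Of 110 collagens, 18 were polysomal and 22 nonpolysomal, both below the 26% and 29.9% of all genes. Their medians were 0.17, -0.41 and 0.07 in cultures 1 to 3. The blister gene bli-2 had 77.7% ± 9.55 and col-50 had 23.2% ± 0.979. Without culture 2 the counts were 22 and 15, and with signals as deposited they were 18 and 39.

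Extracellular matrix and basement membrane genes were polysomal for 12 of 19 and nonpolysomal for 0, against 26% and 29.9% of all genes. Their median was 0.71. The nidogen gene nid-1 had normalised signals of 845.8, 1179 and 925.2 in polysomal RNA, against 175.1, 155.5 and 161.5 in nonpolysomal RNA. The laminin alpha gene epi-1 had 1825, 2764 and 1345, against 414.8, 420.4 and 329.3. Neither gene had overlapping fractions. At the low end, the SPARC gene ost-1 had a share of 50.8% ± 4.71 and the dystroglycan gene dgn-1 had 49.8% ± 6.94.

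Muscle structure and contraction genes were polysomal for 24 and nonpolysomal for 1 of 46, against 26% and 29.9% of all genes. Their median was 0.49. The giant sarcomere protein gene unc-22, which encodes twitchin, had normalised signals of 2138, 2588 and 1449 in polysomal RNA, against 493.5, 448.1 and 319.4 in nonpolysomal RNA. The single nonpolysomal member was the tropomyosin gene lev-11 at 38.6% ± 2.97. The essential myosin light chain gene mlc-3 stood at 44.3% ± 1.87 and did not pass (limma adjusted p = 0.0702). With signals as deposited 25 were polysomal and 8 nonpolysomal.

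Neuronal genes differed by class. Synaptic transmission genes were polysomal for 21 and nonpolysomal for 6 of 47. The ubiquitin ligase gene rpm-1, which limits synapse growth, had a share of 82.5% ± 1.09, and unc-25, which makes the transmitter GABA, had 81.9% ± 4.51. The G protein regulator ric-8 had 28.9% ± 7.35. The tyrosine decarboxylase gene tdc-1 had 32.6% ± 3.98 by its brightest probe set, but another of its probe sets was called polysomal at 65.7%. Neuropeptide and insulin-like peptide genes were polysomal for 25 and nonpolysomal for 27 of 86, near the 26% and 29.9% of all genes. The peptide gene nlp-47 had 82.9% ± 6.77, while flp-24 had 18.3% ± 9.96 and nlp-51 had 19.5% ± 6.68. The FMRFamide-like genes alone were polysomal for 3 and nonpolysomal for 13 of 22.

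Chemoreceptors, the odorant receptors of sensory neurons, were polysomal for 0 and nonpolysomal for 56 of 131, against 26% and 29.9% of all genes. Their median was -0.52. Their signals were low, and 66 of 131 were called present on all 6 arrays. Of these 66, 33 were nonpolysomal. Adding 50 to each signal left 37 nonpolysomal with a median of -0.26, and on the bacterial controls 5 were polysomal and 4 nonpolysomal, with a median 0.56 below that of all genes. Without culture 1 there were 0 polysomal and 27 nonpolysomal, and without culture 2 there were 2 polysomal and 36 nonpolysomal. The gene sri-40 had a share of 24% ± 5.78 and srsx-34 had 55.7% ± 5.29.

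Intestinal genes were polysomal for 17 and nonpolysomal for 5 of 40, or 42.5% and 12.5%, against 26% and 29.9% of all genes. With signals as deposited there were 15 and 11. The gut esterase gene ges-1 had 78.2% ± 4.76 and the transporter gene pgp-3 had 77.4% ± 1.96. The lysozyme gene lys-4 had 33.4% ± 7.98 and the heme transporter gene hrg-1 had 24.9% ± 5.21. C-type lectins were polysomal for 17 and nonpolysomal for 19 of 75, with medians of 0.10, -0.48 and 0.15 in cultures 1 to 3. The lectin clec-83 had 77.1% ± 3.99 and clec-60 had 21.3% ± 6.05.

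Detoxification families differed in degree. Glutathione transferases were polysomal for 13 and nonpolysomal for 1 of 24, with gst-13 at 83% ± 4.08 and the single nonpolysomal member gst-27 at 35.0% ± 3.64. UDP-glucuronosyltransferases were polysomal for 19 and nonpolysomal for 6 of 44 (12 and 4 without culture 3), with ugt-25 at 81.9% ± 3.73 and ugt-50 at 24.7% ± 1.46. Cytochromes P450 were polysomal for 12 and nonpolysomal for 8 of 34, or 35.3% and 23.5%, near the 26% and 29.9% of all genes. They ran from cyp-33C9 at 74.9% ± 5.69 to cyp-44A1 at 22.4% ± 2.58 and the pseudogene cyp-31A1 at 17.9% ± 0.965.

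Energy metabolism held paralogs on opposite sides. Glycolysis genes were polysomal for 9 and nonpolysomal for 1 of 15, against 26% and 29.9% of all genes. The lactate dehydrogenase gene ldh-1 had normalised signals of 2581, 3737 and 3720 in polysomal RNA, against 855.1, 1697 and 911.4 in nonpolysomal RNA. The hexokinase gene hxk-1 was the nonpolysomal member, at 37.7% ± 1.87, whereas hxk-2 gave no present call in nonpolysomal RNA. Taken against its undetected signals, hxk-2 was at least 4.28-fold higher in polysomal RNA on average, with log2 ratios of 2.36, 2.58 and 1.34 in cultures 1 to 3. TCA cycle genes were polysomal for 6 and nonpolysomal for 8 of 23, or 26.1% and 34.8%, near the shares of all genes. With a common median 5 were polysomal and 13 nonpolysomal. The gamma subunit genes of isocitrate dehydrogenase had 2019, 1778 and 1512 in polysomal RNA for idhg-2, against 258, 505.6 and 346.3 in nonpolysomal RNA. For idhg-1 the values were 2195, 1955 and 2297 in polysomal RNA, against 4266, 4454 and 3495 in nonpolysomal RNA. The shares were 82.6% ± 5.51 for idhg-2 and 34.7% ± 4.62 for idhg-1. Both idhg genes passed in their own direction, and the difference between them was not tested.

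Nuclear genes of oxidative phosphorylation were polysomal for 15 and nonpolysomal for 21 of 62, or 24.2% and 33.9%, also near all genes. The counts ran from 7 to 16 polysomal and 3 to 30 nonpolysomal over the alternatives, and were 8 and 12 without culture 1 and 8 and 14 without culture 3. Complex I gene ndua-2 had a share of 80.6% ± 7.57, and the cytochrome c gene cyc-2.1 had 32.0% ± 1.15. Vacuolar ATPase genes, for the proton pump of lysosomes and other membranes, were polysomal for 2 and nonpolysomal for 6 of 18. Tubulin genes were polysomal for 5 and nonpolysomal for 4 of 13, against 26% and 29.9% of all genes. The touch neuron tubulins mec-12 and mec-7 had 75.8% ± 5.52 and 68.3% ± 6.83, and the gamma tubulin of centrosomes, tbg-1, had 33.5% ± 2.92.

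Regulatory genes had no common side. Nuclear hormone receptors were polysomal for 28 and nonpolysomal for 21 of 124, or 22.6% and 16.9%, both below the shares of all genes. Without culture 1 the counts were 13 and 12, and on the bacterial controls they were 57 and 3. Homeobox genes were polysomal for 8 and nonpolysomal for 9 of 36, near the 26% and 29.9% of all genes. The Hox gene ceh-13 had 67.2% ± 0.812 and ceh-40 had 15.1% ± 4.28. Genes of Wnt, Notch, EGF and TGF-beta signalling were polysomal for 13 and nonpolysomal for 16 of 49, also near the shares of all genes. The Wnt ligand genes fell on opposite sides, with cwn-1 at 80.0% ± 0.89 and mom-2 at 22.1%, 30.9% and 22.8% in cultures 1 to 3. For cwn-1 the normalised signals were 542, 672.7 and 500.7 in polysomal RNA, against 141.6, 158 and 127.7 in nonpolysomal RNA. For mom-2, which signals in the early embryo, they were 476.8, 486.3 and 615.1, against 1679, 1086 and 2088.

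The sign of a list median near 0 depended on the scaling. On bacterial control scaling the medians of 15 further lists became positive, in step with that of all genes. Relative to all genes, the TCA cycle then lay at -0.34, oxidative phosphorylation at -0.31, chaperonin at -0.43 and collagens at -0.27. The vacuolar ATPase lay at -0.16, histones at -0.12 and mitochondrial ribosomal proteins at -0.05. The others lay within 0.1 of all genes, namely initiation factors, splicing factors, P granule genes, neuropeptides, C-type lectins, nuclear hormone receptors, homeobox genes and signalling genes. With signals as deposited the initiation factors stood at 0.06. The aminoacyl-tRNA synthetases turned to -0.08 when each fraction was normalised on its own.

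**Figure D4:**
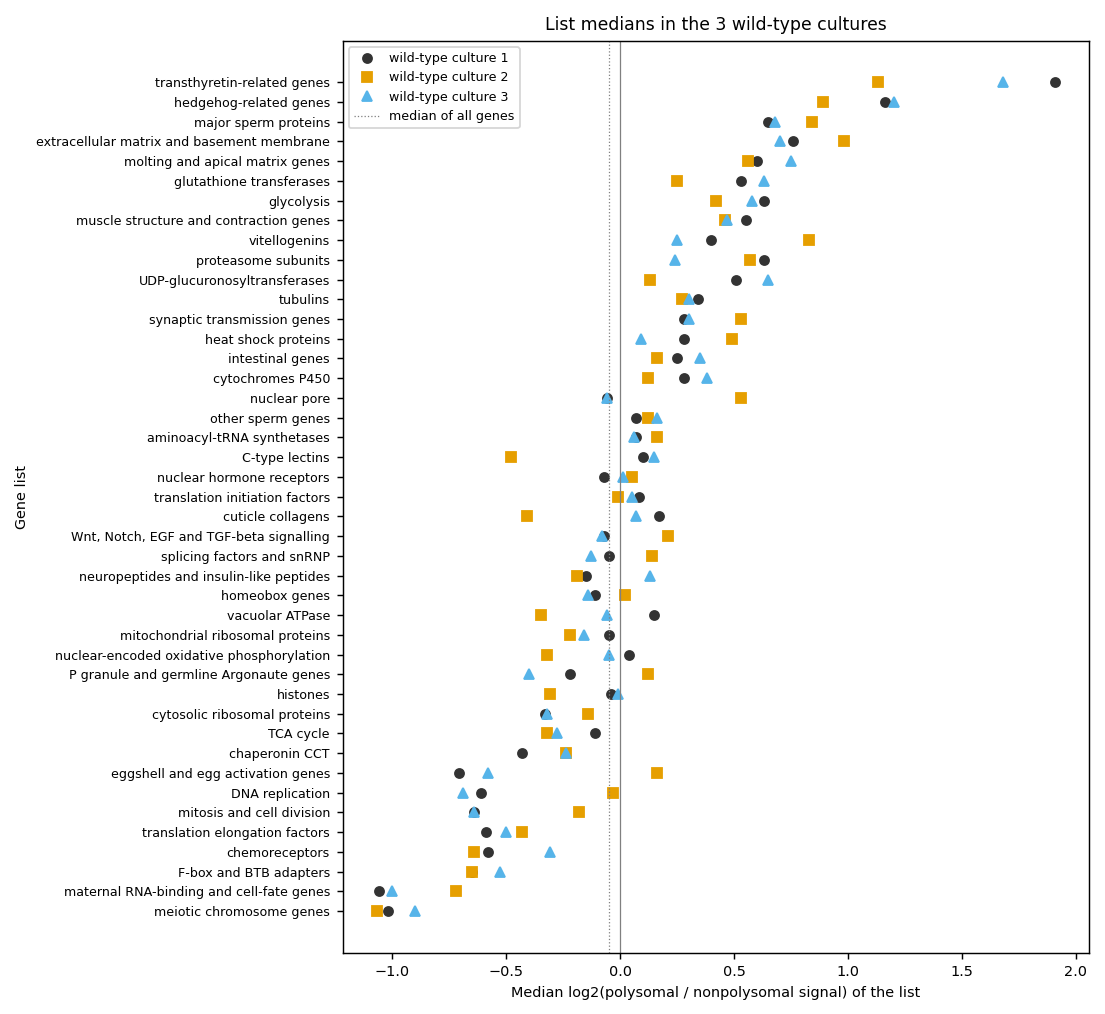
Median log2 ratio P/NP of each list in wild-type cultures 1, 2 and 3 (circle, square, triangle), with the median of all genes as a dotted line. Eggshell genes (-0.71, 0.16 and -0.58), DNA replication (-0.61, -0.03 and -0.69) and cuticle collagens (0.17, -0.41 and 0.07) show culture 2 apart from the others.

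Position and size of a gene went with its fraction. Of 1414 genes on the X chromosome, 471 were polysomal and 260 nonpolysomal, with a median log2 ratio of 0.15. On the autosomes 2215 were polysomal and 2813 nonpolysomal of 8895, with a median of -0.09. The X median was above that of the autosomes in each culture, at 0.16, 0.07 and 0.20 against -0.10, -0.10 and -0.08. Genes were put into 5 equal groups by span, the distance from start to end in RefSeq. The longest group, from 5110 bases up, had 757 polysomal and 340 nonpolysomal genes of 2064 and a median of 0.21. The group next to the shortest had 452 and 800 of 2063 and a median of -0.22, and the shortest had 567 and 652 of 2064 and a median of -0.08, so the order did not follow span throughout. Genes of 1 tissue often share a chromosome or a size, and the overlap of these features with the lists was not tested. In 5 equal groups by combined signal, the dimmest had a median of -0.12 and the brightest -0.08.

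**Figure D5:**
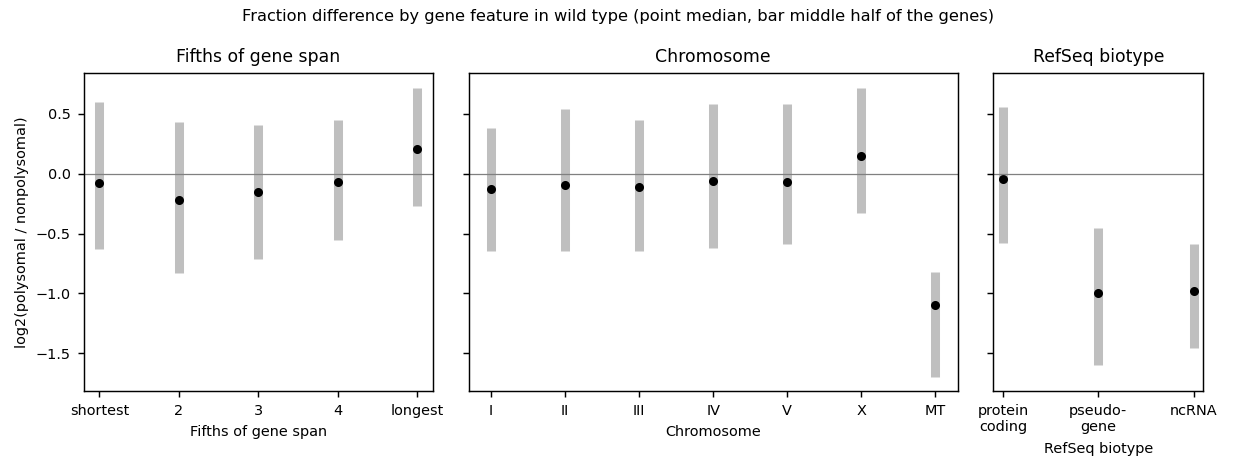
Median (point) and quartiles (bar) of the log2 ratio P/NP by 5 equal groups of gene span, by chromosome and by RefSeq biotype, in wild type. The X chromosome (median 0.15) and the longest genes (0.21) lie above 0, and mitochondrial genes (-1.1), pseudogenes (-1.0) and noncoding RNAs (-0.98) lie below.

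Families by gene symbol with at least 10 measured members gave further groups. After transthyretin-related genes, the highest medians were those of grl at 1.00, the galectins lec at 0.95, the P-glycoproteins pgp at 0.91 and the mec genes of touch at 0.90. Of 12 galectin genes, 9 were polysomal and 0 nonpolysomal, against 26% and 29.9% of all genes. The lowest medians were those of the MATH-BTB genes bath at -1.02, with 14 of 17 nonpolysomal, the F-box genes fbxb at -0.73 and the chemoreceptors srh at -0.67. The TFIID subunit genes taf had a median of -0.64, with 8 of 12 nonpolysomal, and the Mediator subunit genes mdt had -0.61, with 9 of 15. Families were ranked on these values, so the ranks describe these arrays, and they were not recomputed under other scalings.

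The spread between cultures differed by gene. Culture 2 lay farthest from the other cultures for 45.6% of genes, against 26% for culture 1 and 28.4% for culture 3. Genes with a wide spread included F42A10.6, whose shares were 79.4%, 44.6% and 78.7%, and txdc-12.2, a thioredoxin-domain gene, at 89.9%, 58.9% and 78.1%. In both, culture 2 was the low one, and both were called polysomal, although F42A10.6 had more signal in nonpolysomal RNA in culture 2. Abundant genes with a difference near 0 were gst-10 at 50% ± 2.42, the collagen gene col-93 at 50% ± 2.65 and the aspartyl protease gene asp-1 at 50% ± 0.372. For asp-1 the signals as deposited gave -0.64 (limma adjusted p = 0.00834), and for col-93 they gave -0.59 (limma adjusted p = 0.022), so their evenness holds only after normalisation. For gst-10 the deposited value was -0.02.

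In ife-1(bn127) worms most wild-type differences kept their sign. Of 5779 genes called in wild type, the mean of the ife-1 cultures had the same sign for 5428, and both genotypes were measured in separate cultures. However, the arrays were normalised together, and the spread of the ife-1 cultures entered these calls. The same count over all genes is not given here. The difference of log2 ratios between ife-1 and wild type passed for 17 of 13333 probe sets, or 0.128%, and for 13 of 10334 genes, or 0.126%. List medians in ife-1 and wild type were 1.31 and 1.56 for transthyretin-related genes, -0.88 and -1.01 for meiotic genes and -0.45 and -0.88 for maternal genes. For major sperm proteins they were -0.02 and 0.79, and for proteasome subunits -0.02 and 0.46. No member of these 5 lists passed the test of the genotype difference.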

How the data were processed

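Polysomal and nonpolysomal RNA was hybridised to Affymetrix arrays. The deposited values are linear signal intensities of probe sets, which the labels call raw; no source used here gives the software or scaling. Present and absent detection calls, also deposited by the authors, were counted by group because their columns do not tell the arrays of a group apart. Of 13372 deposited probe sets, 39 controls were removed. Each probe set left had at least 6 present calls over the 12 arrays of both genotypes, so percentages are of detected probe sets. Some, such as those of ceh-74 and ceh-82, had no present call in wild type. The table holds 36 further columns of sample values that were left out.

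Signals were raised to at least 1 (5 values), quantile-normalised on the log2 scale over 12 arrays and turned into log2 P/NP per culture. limma 3.58.1 in R 4.3.3 (lmFit, eBayes without trend) fitted all 6 cultures by genotype, with p-values adjusted by Benjamini-Hochberg over all 13333 remaining probe sets (threshold 0.05). The wild-type estimate is the mean of the wild-type cultures, and the ife-1 cultures add only to the estimate of the spread. Pairing of fractions comes from the shared culture. By the platform annotation, 12616 probe sets name a single gene, 459 name several and 258 name no gene. Of the single-gene probe sets 12595 matched RefSeq symbols. The brightest probe set stands for a gene. A bound sets the richer fraction against, on each array of the poorer one, its own signal or the dimmest signal still detected, whichever is higher. Bounds are means over cultures, so single cultures can lie below them. Precision is limited by having 3 cultures. Python 3.11.15, pandas 2.3.3 and matplotlib 3.10.9 were used. The code of the fit was run on simulated arrays with few changed probe sets and like signal distributions. Such arrays cannot say how the normalisation acts on these fractions.

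Members and lists were chosen with earlier results of these data known. Named genes are, in each direction, the most extreme measured genes, the most extreme abundant genes and the largest bounds, then the highest and lowest members of each list, even genes and genes with a wide spread, of which part is named. Others, such as noncoding and mitochondrial RNAs and paralogs, were chosen after their values were seen. Alternatives changed the scaling, filters, offset, variance model, pairing and cultures.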

Additional observations from a re-analysis of the deposited data

Results flagged for a closer look

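The vitellogenin gene vit-4 stood out because the cultures of each genotype lay on opposite sides of 0. Its polysomal share averaged 48.4% in ife-1 and 59.5% in wild type, with a wild-type log2 ratio of 0.56, above 0 in every wild-type culture and below 0 in every ife-1 culture. The test of the difference did not pass (limma adjusted p = 0.141), and the wild-type sign turned under other scalings. The ife-1 mean lay near 0, at -0.09 for vit-4 and 0.05 for vit-5. The probe set of vit-4 has a name that does not mark it as specific to 1 gene.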

How the results depend on the processing

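The wild-type counts moved with the scaling and the probe sets tested. On the bacterial controls 6103 probe sets were polysomal and 928 nonpolysomal, and among the 6666 probe sets above the median signal 1960 were polysomal and 2411 nonpolysomal, where fewer were tested. With no replicate block for the pairing of fractions the total was 5693 in place of 7438. With the wild-type cultures alone, so that ife-1 added nothing to the spread, it was 6417, or 48.1% of probe sets. The genotype difference gave 9 calls with signals as deposited, 352 on the bacterial controls, 568 above the median signal, 214 among probe sets present on all wild-type arrays, 609 with an offset of 50, 6 with no replicate block for fractions, 0 (2469 at an unadjusted p under 0.05) with set numbers as a replicate block, and 0 to 12 with 1 wild-type culture left out (0, 12 and 1 without cultures 1, 2 and 3, limma; 2318 at an unadjusted p under 0.05 for the 0). Wild-type calls came to 5714, 7115 and 5994 without cultures 1, 2 and 3. Between deposited, common-median and within-fraction scaling, rpl-11.1 was -0.50, -0.62 and -0.54, vit-4 was -0.12, -0.25 and -0.09, and asp-1 was -0.64, -0.77 and -0.66. For iff-1 the common-median and within-fraction values were -0.54 and -0.44. The cause was not tested. The labels do not tie same-numbered cultures of different genotypes to each other. Features that need sequences were not run. Signal near background limits dim genes.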
